A study of Mus musculus with 6 samples.

Results

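Interferon-stimulated genes and interferon-inducible GTPases, 46 genes in all, were examined in lungs of mice that lack lincRNA-Cox2 and of wild type mice. The genes were chosen by symbol, as genes known to be induced by type I or type II interferon. All 46 were found among the 20494 gene clusters of the authors' deposited table, and all 46 carried an adjusted p-value. The list names the GTPase genes Gm4951 and F830016B08Rik outright, so the count of genes called among the 46 is in part fixed by the choice. The knockout group held 3 lungs of male C57BL/6 mice of genotype lincRNA-Cox2 KO, and the wild type group held 3 lungs of male C57BL/6 mice. Both groups were 4 months old and had no treatment. Each sample was taken as a separate mouse, although no label says so, and every p-value rests on these samples alone. Whole-lung RNA was sequenced, so fewer cells of a type and less RNA per cell cannot be told apart in any value given here.

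Interferons are secreted proteins, and cells release those of type I on sensing viral or bacterial nucleic acid. Type I interferons signal through the Ifnar receptor to a complex that includes Stat2 and Irf9 and binds the interferon-stimulated response element (ISRE) in front of antiviral genes, and type II interferon signals to gamma-activated sites (GAS). The induced proteins sense viral RNA, block translation, tag proteins with the ubiquitin-like Isg15, or, as the guanylate-binding proteins and immunity-related GTPases do, assemble on the vacuoles of intracellular pathogens.

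The promoters of these genes are shown first, because the response element is what many of them share. RefSeq (GRCm38.p6) promoters, running from 250 bases before to 50 bases after the start, were found for 33 of the 46 genes. Dhx58, Zbp1, Oas2, Usp18, Parp9, Parp14, Mx1, Mx2, Ifi27l2a, Rtp4, Iigp1, Gm4951 and F830016B08Rik were without an entry. The ISRE core, searched on both strands as GAAA, any 2 bases and GAAA again, was present in 17 of the 33 genes (51.5%), against 1079 of 27025 genes (3.99%) with a promoter of the same length. The GAS core, searched as TTCNNNGAA, which reads the same way on both strands, was present in 8 of the 33 (24.2%) against 9.55% of all genes. Overlapping matches were kept, and the cores can overlap each other. The following stretches of 60 bases, 1 for each of 5 genes, written 5′ to 3′ on the strand of the gene, show the core in capitals.
Rsad2: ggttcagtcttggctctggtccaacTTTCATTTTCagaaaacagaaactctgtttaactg
Ifit1: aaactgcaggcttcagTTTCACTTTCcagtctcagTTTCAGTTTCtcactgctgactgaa
Isg15: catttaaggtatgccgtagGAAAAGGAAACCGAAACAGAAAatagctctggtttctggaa
Bst2: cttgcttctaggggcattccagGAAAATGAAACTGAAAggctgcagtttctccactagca
Irgm1: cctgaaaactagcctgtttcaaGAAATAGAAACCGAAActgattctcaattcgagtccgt

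The Rsad2 stretch (chr12:26456538-26456597, minus strand) runs from position -145 to -86 relative to the start and holds 1 core, on the opposite strand. The Ifit1 stretch (chr19:34640769-34640828, plus strand) holds 2 separate cores, on the opposite strand, between positions -120 and -61. In Isg15 (chr4:156200856-156200915, minus strand) 3 cores overlap, and in Bst2 (chr8:71537565-71537624, minus strand) and Irgm1 (chr11:48871413-48871472, minus strand) 2 cores overlap. Rsad2 is the gene of the 5 whose level differed by genotype at the adjusted threshold, and Ifit1 had the lowest ratio of the 5. The 17 genes with a core had a median log2 ratio of knockout over wild type means of 0.01, from -0.32 to 0.65, with 10 higher in knockout. The 16 genes with a promoter and no core had a median of -0.02, from -0.35 to 0.46, with 3 higher in knockout. Both groups therefore centred near 0, and a match to these letters is a description, not a measured binding site.

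In the knockout lungs 3 of the interferon genes were higher than in wild type at the adjusted threshold. Gm4951 and F830016B08Rik, both immunity-related GTPase genes, rose 3.01-fold and 6.77-fold, and Rsad2, which encodes the antiviral enzyme viperin, rose 1.56-fold. No member fell at the adjusted threshold. A gene is called where its adjusted p is under 0.05 in the authors' deposited table, which gives a DESeq2 Wald test over all genes. By that rule 3 of 46 members (6.52%) were called, against 184 of 16902 tested clusters (1.09%) in either direction and 0.592% in the higher direction. Without the 2 GTPase genes that the list names outright, 1 of 44 (2.27%) was called.

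At an unadjusted p under 0.05, 6 of the 46 members (13%) passed, 4 higher and 2 lower, against 8.47% of all tested clusters, and 4 of 44 (9.09%) passed without Gm4951 and F830016B08Rik. Knockout means were higher in 19 members and lower in 27. The median log2 ratio of the members was -0.02, beside -0.0013 over all tested clusters. The median size of the log2 ratio, regardless of sign, was 0.0684 in the members and 0.0717 in all tested clusters. The normalized counts of the 46 genes summed to 78699 in wild type and 78109 in knockout, a ratio of 0.992, which is also the ratio of the summed counts of the whole table.

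**Figure D1:**
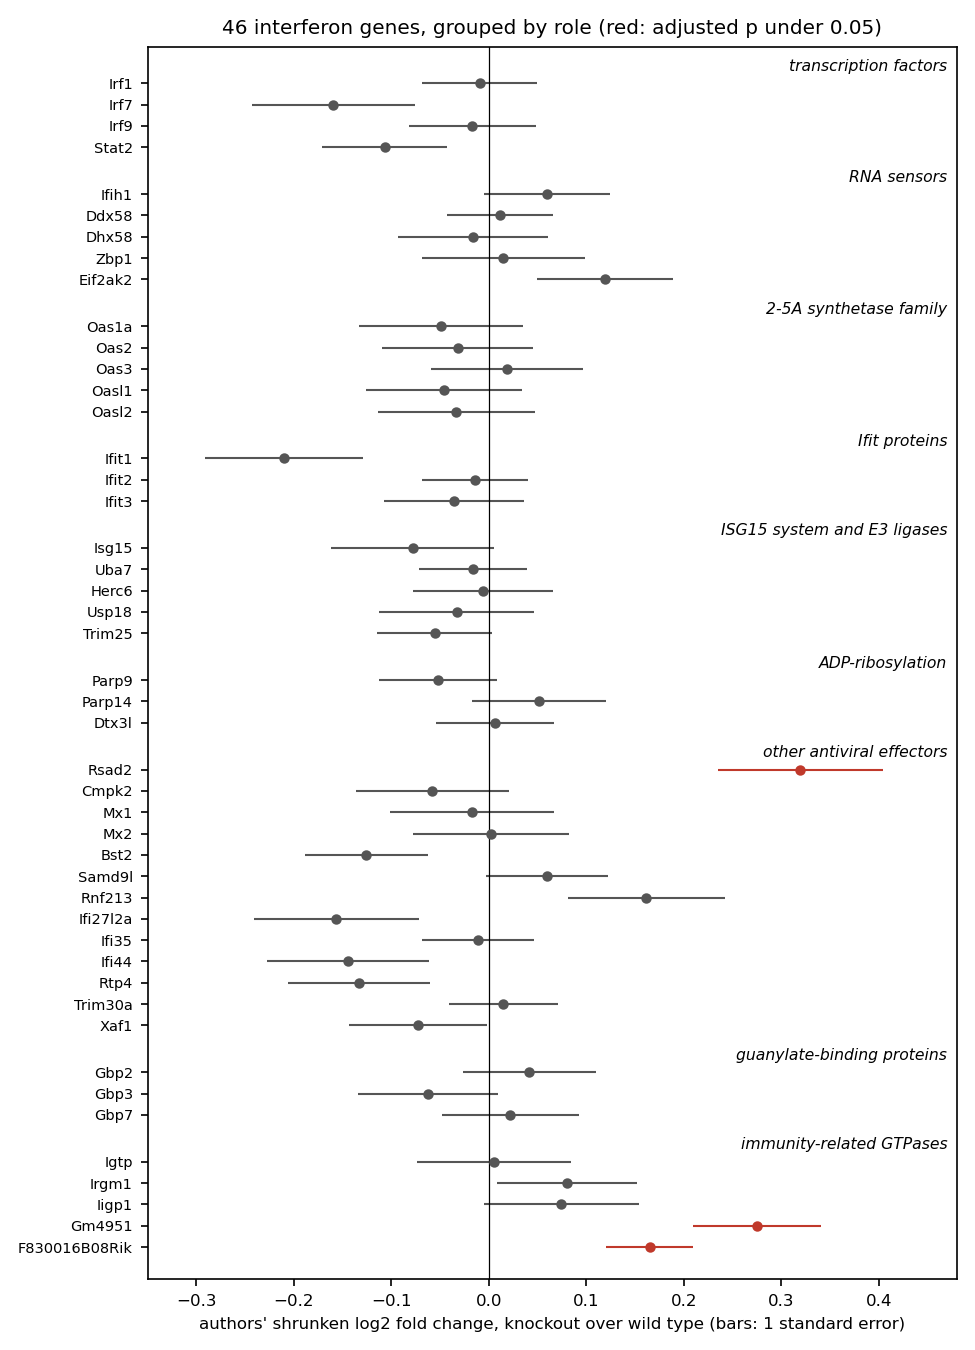
Shrunken log2 fold changes from the authors' deposited table (horizontal axis, above 0 where knockout was higher, bars 1 standard error) are plotted for each of the 46 genes, grouped by role. The 3 called genes, Rsad2 at 0.32, Gm4951 at 0.28 and F830016B08Rik at 0.16, are in red, and the lowest value is that of Ifit1 at -0.21.

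Lung identity and the knockout itself were checked in the same table. LincRNA-Cox2 had a mean normalized count of 311 in wild type and 0.666 in knockout, and its neighbour Ptgs2 one of 2929 and 298. Normalized counts summed to 3.71e+07 in the wild type mean and 3.68e+07 in the knockout mean, and derived size factors ran from 0.961 to 1.03. The markers of alveolar, airway and endothelial cells, among them Sftpc, Ager, Scgb1a1 and Pecam1, were abundant in both genotypes and none of them was called. Of 11 neutrophil markers, 10 were tested and 8 were called, all higher in knockout. The summed level of all 11 went from 11979.7 to 16059, and includes Ltf, which was not called, at 2449 in wild type and 1366 in knockout. None of the 46 genes lies on chromosome 1, where the targeted locus is.

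Among the transcription factors, all 4 had lower means in knockout and none was called. Irf1, which type II interferon induces, had a mean normalized count of 5052 in wild type and 5015 in knockout. Irf7, the factor that amplifies type I interferon production, had 1042 and 862, a log2 ratio of -0.27 with an adjusted p of 0.616 in the authors' deposited table. The Stat2 means were 2480.1 and 2269, and those of its partner Irf9 were 2409 and 2375. The log2 ratio of Irf1, -0.01, turned sign when group means were divided by the summed counts of each group.

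None of the 5 RNA sensors was called. Ifih1 and Ddx58, the cytoplasmic receptors for viral double-stranded RNA known as MDA5 and RIG-I, had 2435 and 3202 normalized counts in wild type and 2560.4 and 3233 in knockout. Their regulator Dhx58 had 453 and 447, and Zbp1, a sensor of left-handed nucleic acid that triggers cell death, had 382 and 389. Eif2ak2, the kinase PKR that halts translation, had the widest difference of the 5, with means of 1402 and 1558. Its log2 ratio of 0.15 had an adjusted p of 0.715 in the authors' deposited table.

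The oligoadenylate synthetase family, whose active enzymes make a product that activates RNA decay by RNase L, held 5 members and none was called. Log2 ratios ran from -0.14 in Oasl1 to 0.06 in Oas3. The mean normalized counts were 333 in wild type and 309 in knockout for Oas1a, 257 and 239 for Oas2, and 1674 and 1617 for Oasl2. Of the 50-base words of Oas1a transcripts, 57.6% also occur in Oas1g, so reads of Oas1a may be shared with that gene.

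The Ifit proteins, which bind foreign RNA ends and hinder its translation, all had lower means in knockout, and 1 of 3 passed the unadjusted threshold. Ifit1 had a mean of 1248 in wild type and 996 in knockout, 1.25-fold lower. The authors' deposited table lists -0.21 ± 0.081 (SE) as its shrunken log2 fold change, with p = 0.00933 and an adjusted p of 0.277, so the difference was not called. Ifit2 and Ifit3, which neighbour it on chromosome 19, had means of 1845 and 2762 in wild type and of 1824 and 2675 in knockout. Of the 50-base words of Ifit3, 51.2% also occur in Ifit3b, so reads of this pair may be shared too.

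The Isg15 conjugation genes all had slightly lower means in knockout, with log2 ratios from -0.14 to -0.01 and no call. Isg15 itself, the ubiquitin-like modifier, had 485 normalized counts in wild type and 441 in knockout. Uba7, the enzyme that activates Isg15, had 2604 and 2570.2, and a second cluster of the same symbol had 752 and 796. The ligase Herc6 had 1091 and 1086, the protease Usp18, which removes Isg15 and dampens receptor signalling, had 1024 and 991, and the ligase Trim25 had a log2 ratio of -0.06. The sign of Herc6 turned when group means were divided by their sums. None of the 3 ADP-ribosylation genes was called, with log2 ratios of -0.06 for Parp9, 0.07 for Parp14 and 0.01 for Dtx3l, the ligase that pairs with Parp9.

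Among 13 other antiviral effectors, Rsad2 was the called gene. Rsad2 (kgCluster5614, chr12:26442743-26456452 in GRCm38.p6) had a mean normalized count of 271 in wild type and 424 in knockout. The authors' deposited table gives a shrunken log2 fold change of 0.32 ± 0.085 (SE), p = 0.000164 and an adjusted p of 0.0209. No 50-base word of Rsad2 occurs in another gene. Its neighbour Cmpk2, a nucleotide kinase gene that lies beside it in the genome and is likewise interferon-induced, had means of 1210.2 and 1142, with an adjusted p of 0.983 in the authors' deposited table. The values of single libraries could not be derived for Rsad2, because 6 sets of whole reads fit its mean in each genotype.

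None of the other 12 effectors was called, and their ratios were of either sign. Bst2, or tetherin, which holds budding virus at the cell surface, had 3199 normalized counts in wild type and 2882 in knockout. Rnf213, a giant ubiquitin ligase, had 148 and 204. In the authors' deposited table Bst2 had a shrunken log2 fold change of -0.13 ± 0.063 (SE, p = 0.0457) and Rnf213 one of 0.16 ± 0.081 (SE, p = 0.0458), both with an adjusted p of 0.573. These are the effectors besides Rsad2 that passed the unadjusted threshold, 1 lower and 1 higher. Ifi44 had means of 511 and 402 and Ifi27l2a had means of 1072 and 878, the former having the lowest log2 ratio of all 46 genes at -0.35. Their adjusted p-values were 0.706 and 0.641 in the authors' deposited table. Rtp4 followed with 991 and 877, whereas the GTPases Mx1 and Mx2, which RefSeq lists as transcribed pseudogenes in this assembly, had 159 and 124 in wild type and 155 and 125 in knockout. The remaining effectors, Samd9l, Ifi35, Trim30a and Xaf1, had log2 ratios from -0.09 to 0.07.

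The guanylate-binding proteins, large GTPases that coat and break pathogen vacuoles, held 3 members and none was called. Gbp2 had 3252 normalized counts in wild type and 3371 in knockout, with an adjusted p of 0.992 in the authors' deposited table. Gbp3 had 1864 and 1762, and Gbp7 had 3540.4 and 3611. The differences of the 3 genes were thus of either sign.

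Immunity-related GTPases, which disrupt the vacuoles of bacteria and parasites in mouse cells, held the largest ratios. All 5 members had higher means in knockout, and 2 were called, both of them named outright by the list. Among 15 other listed GTPases, 6 had higher and 9 lower means, and none was called. The 3 members outside the calls were abundant in both genotypes: Igtp had 1434 and 1442 normalized counts, Irgm1, which regulates the other members of the family, had 1617 and 1739, and Iigp1 had 1989 and 2148. Iigp1 had a shrunken log2 fold change of 0.07 ± 0.080 (SE) and an adjusted p of 0.955 in the authors' deposited table. The called members were scarce in wild type lung, with a mean normalized count of 53.0 for Gm4951 and 5.97 for F830016B08Rik.

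**Figure D2:**
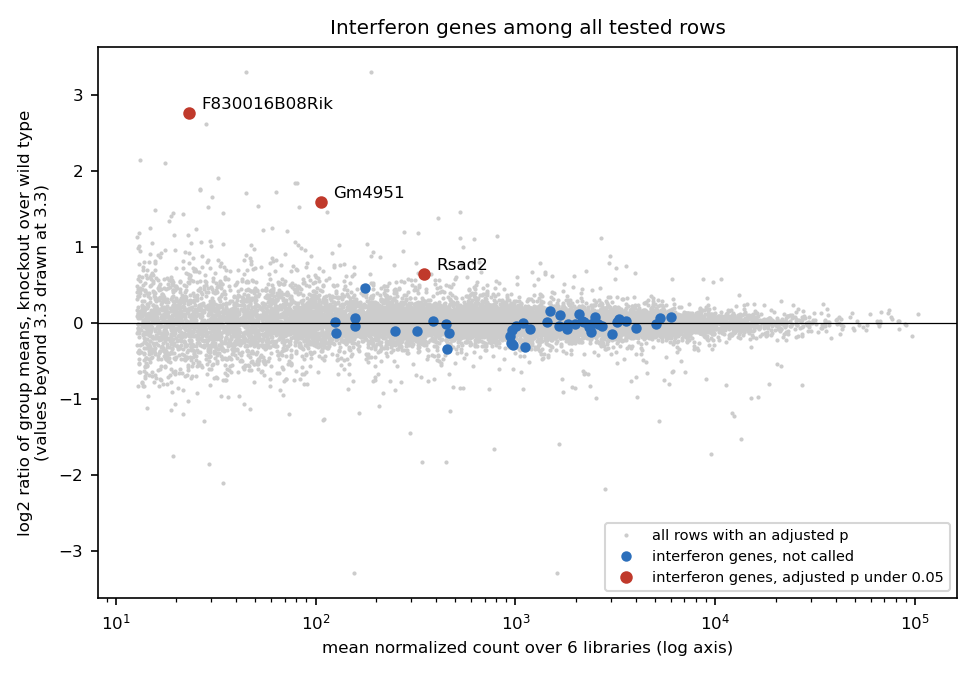
The log2 ratio of knockout over wild type means (vertical axis, drawn to 3.3 at most) is plotted against the mean normalized count over 6 libraries (horizontal log axis) for every tested cluster in grey, with the 46 interferon genes in colour. F830016B08Rik at 2.76, Gm4951 at 1.59 and Rsad2 at 0.65 stand above the other members, which lie between -0.35 and 0.46.

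The table holds group means rather than libraries, but at low counts a mean printed with enough decimals fits only 1 set of whole reads divided by the 3 size factors. Such a set was found for Gm4951 and F830016B08Rik and for no other member. Means of genes with a low p were printed with 6 decimals, and Gm4951 was one of these. Its libraries could thus be derived in part because its p was low, and their lack of overlap is no separate evidence of a difference. Mx2, with means of 124 and 125, fitted 26 sets in wild type and 20 in knockout. The letters A, B and C stand for the libraries of a genotype and carry no sample identity. For Gm4951 the wild type libraries had 61.0, 59.6 and 38.5 normalized counts (62, 60 and 37 reads), and the knockout libraries had 173, 70.5 and 236 (177, 72 and 231 reads). The means were 53.0 ± 12.6 (SD, n = 3) in wild type and 159.8 ± 83.6 (SD, n = 3) in knockout. Every knockout library lay above every wild type library, but knockout library B lay only 1.16 times above the highest wild type library.

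For F830016B08Rik the wild type libraries had 6.89, 8.94 and 2.08 normalized counts (7, 9 and 2 reads), and the knockout libraries had 39.99, 13.7 and 67.5 (41, 14 and 66 reads). The means were 5.97 ± 3.52 (SD, n = 3) and 40.4 ± 26.9 (SD, n = 3). Here too the genotypes did not overlap, and library C was the highest and library B the lowest of the knockouts, as for Gm4951. In each gene the exact permutation test (two-sided, 3 against 3) gave p = 0.1, the smallest that this design allows. That p is fixed once the libraries do not overlap. Both genes were named outright by the list and called from the same libraries. For F830016B08Rik too, the lack of overlap and this p are therefore no separate evidence of a difference. Of the 1433 tested clusters with both group means up to 45 and 1 set of reads in each genotype, 102 (7.12%) had knockout libraries that all lay above the wild type ones. F830016B08Rik is among these clusters, whereas Gm4951, with its higher means, lies outside them.

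**Figure D3:**
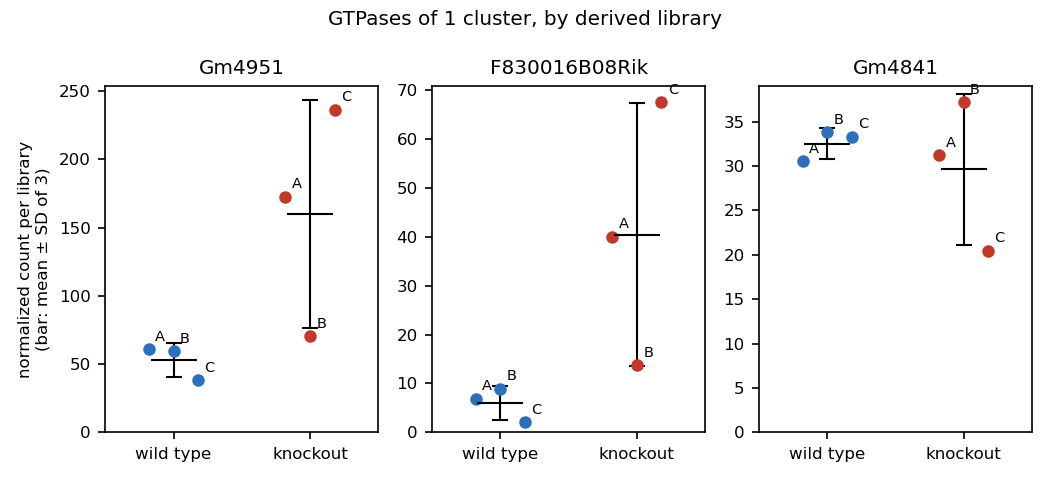
Normalized counts of the 3 wild type and 3 knockout libraries (points, lettered within genotype) are plotted for Gm4951, F830016B08Rik and Gm4841, with mean and SD as bars. Knockout libraries C, A and B stand in that order in the first pair of genes, at 236, 173 and 70.5 for Gm4951, while the Gm4841 values of the genotypes overlap.

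The tests of the authors' deposited table gave Gm4951 (kgCluster13551) a shrunken log2 fold change of 0.28 ± 0.066 (SE), p = 2.69e-05 and an adjusted p of 0.00528. For F830016B08Rik (kgCluster13553) the authors' deposited table gives 0.16 ± 0.044 (SE), p = 0.000213 and an adjusted p of 0.0248. The shrunken values lie far below the log2 ratios of the means, 1.59 and 2.76. Leaving out knockout library C lowered the log2 ratio to 1.20 for Gm4951 and 2.17 for F830016B08Rik. Leaving out knockout library B raised it to 1.95 for Gm4951, and leaving out wild type library B raised it to 3.17 for F830016B08Rik.

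These GTPase genes lie together on chromosome 18. In GRCm38.p6 Gm4951 (also named Ifgga2) lies at chr18:60212004-60248440, Gm4841 (Ifgga3) at chr18:60268301-60273267, F830016B08Rik (Ifgga4) at chr18:60288739-60303823 and Iigp1 (Ifgga1) at chr18:60373616-60392634. Gm4841, which lies between the called genes, had 30.5, 33.8 and 33.3 normalized counts in the wild type libraries and 31.2, 37.2 and 20.5 in the knockout libraries. Its genotypes overlapped (exact permutation p = 0.8), and its adjusted p was 0.997 in the authors' deposited table. Knockout library C, the highest for the called GTPases, was the lowest for Gm4841. Genes tested beyond the cluster but within 500 kb of it, from BC023105 to Tcof1, were looked up after their values were seen. Cd74, the invariant chain of antigen presentation, was the only gene called among them, beside 1.09% called over all tested clusters. Its means were 31433 and 37302, and its adjusted p was 0.00858 in the authors' deposited table. Gm4951 shares 4.62% of its 50-base words with other genes, F830016B08Rik 1.75% and Gm4841 10.0%, so most of each transcript can be assigned to 1 gene. The far more abundant Iigp1, with a wild type mean of 1989 beside 53.0 for Gm4951, shares 1.47% of its words with Gm4951. The part of reads shared with Iigp1 in the Gm4951 counts was not tested.

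**Figure D4:**
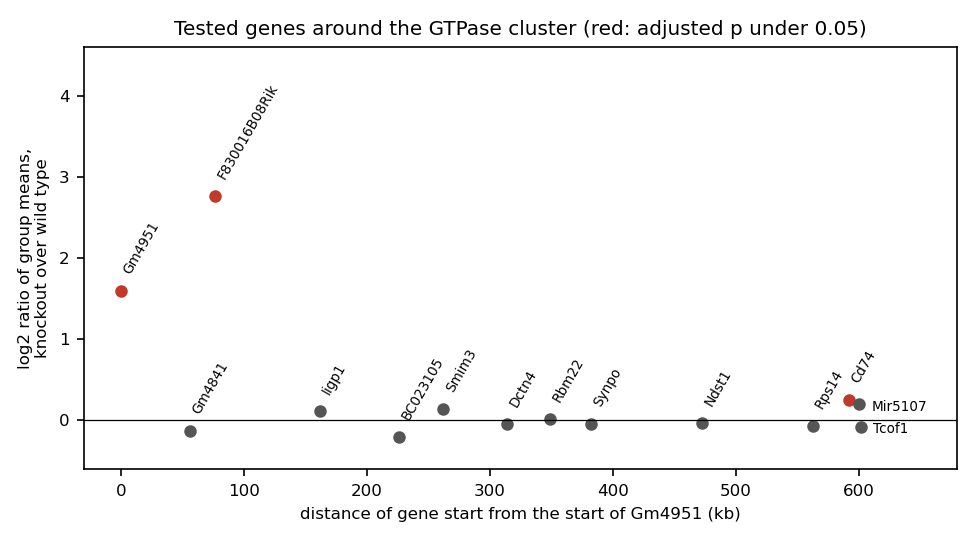
The log2 ratio of knockout over wild type means (vertical axis) is plotted against distance from the start of Gm4951 in kb (horizontal axis) for tested genes around the cluster. Gm4951 at 1.59 and F830016B08Rik at 2.76 flank Gm4841 at -0.13, and Iigp1 stands at 0.11.

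Per kilobase of exon (GENCODE M21), the levels of the 46 genes spanned a 1956-fold range in wild type lung. The lengths of the authors' clusters are not given and may differ from these exon lengths, which limits the range and the ranks. For Uba7, only the larger of its clusters was divided by the full 6692 bases. Bst2 was highest, at 3543 normalized counts per kilobase in wild type and 3192 in knockout, followed by Ifi27l2a at 2315 and 1897, Ifit3 at 1583 and 1533, Gbp2 at 1292 and 1340 and Irf1 at 1271 and 1261. The median member stood at 375 in wild type. At the low end, F830016B08Rik went from 1.81 to 12.3 normalized counts per kilobase, Gm4951 from 20.1 to 60.4 and Rsad2 from 62.6 to 97.8. The called genes thus ranked 46, 44 and 38 of 46 in wild type and 45, 39 and 37 in knockout, still among the least abundant of the list. Only group means are known for the other members, so neighbours in this order cannot be told apart by their spread.

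**Figure D5:**
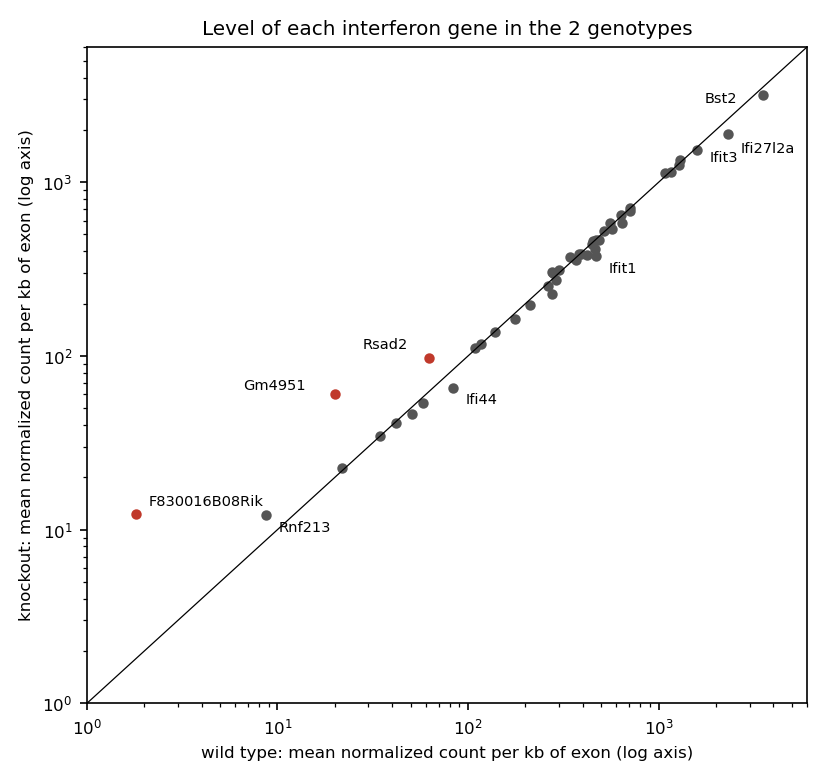
The mean normalized count per kilobase of exon in knockout (vertical log axis) is plotted against that in wild type (horizontal log axis) for the 46 genes, with a line of equal levels. The called genes, in red, lie above the line, with F830016B08Rik at 1.81 in wild type and 12.3 in knockout.

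The 43 members that were not called had log2 ratios between -0.35 in Ifi44 and 0.46 in Rnf213, and 28 of them lay within 0.1 of 0. Their adjusted p-values ran from 0.277 to 0.9997 in the authors' deposited table. The 95% intervals of their shrunken fold changes ran from -0.37 in Ifit1 at the lowest to 0.32 in Rnf213 at the highest. These intervals are centred on the shrunken values and do not bound the log2 ratios of the means. The ratios of Rnf213 (0.46) and Ifi44 (-0.35) lay outside their own intervals, which ran from 0.003 to 0.32 and from -0.31 to 0.019. A p that misses the threshold does not show that a gene was equal in the genotypes.

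Other genes of the interferon pathway were read from 5 further lists, and none of their 117 tested genes was called. At an unadjusted p under 0.05, 6 were higher and 4 lower, or 8.55%, beside the 8.47% of all tested clusters. The receptors were not called, with 4725 and 4499 normalized counts for Ifnar1, the type I receptor chain, and 6078 and 6092 for Ifngr1 of the type II receptor. Ifng, the type II interferon itself, had 12.1 and 15.6, with an adjusted p of 0.991 in the authors' deposited table. It was the only ligand tested. Of 19 ligands and receptors listed, 9 had a cluster and 7 an adjusted p. The listed type I and type III interferon genes lacked a cluster or an adjusted p, so a change in them was not tested.

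Socs3, an inhibitor of cytokine receptor signalling, was the 1 of 19 signalling genes and brakes that passed the unadjusted threshold, with means of 2155 and 1796 and an adjusted p of 0.128 in the authors' deposited table. Of 16 nucleic acid sensors and adaptors, 3 passed it, all with higher means in knockout. Tlr7 and Tlr8, endosomal receptors for single-stranded RNA, had 637 and 419 normalized counts in wild type and 791 and 522 in knockout, and Tmem173, the adaptor STING, had 798 and 919.6. Their adjusted p-values were 0.187, 0.127 and 0.393 in the authors' deposited table. Of 61 other interferon-stimulated genes tested, 3 were higher and 3 lower at the unadjusted threshold. The smallest adjusted p among them in the authors' deposited table was 0.0651, for Tor3a, with means of 3396 and 2927. Tor3a lies on chromosome 1, 6.55 Mb from Ptgs2, and the part of that linkage in its difference was not tested. The 15 other listed GTPases tested had log2 ratios from -0.23 to 0.31. The 1 of them that passed the unadjusted threshold, with a higher mean, is also counted among the 61 above. It counts once in the 117 genes of the 5 lists. Of these GTPases, Tgtp1, also of the immunity-related family, had 1508 normalized counts in wild type and 1343 in knockout, and Irgm2 had 2490 and 2491.

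Among blood cell markers, those of neutrophils held called genes, and the part of any blood cell type in the values above was not tested. Of the other lists, 6 of 7 classical monocyte markers had higher means in knockout and none was called, though 3 passed the unadjusted threshold, all higher. A gene of these 3 is also counted among the other interferon-stimulated genes above. The sum of the 7 markers, 20240.8 in wild type and 21587 in knockout, is mostly Fn1, at 12111 and 11985. Of 9 plasmacytoid dendritic cell markers, a cell type known for type I interferon release, 8 had lower means. None of the 9 was called, though 3 passed the unadjusted threshold, all lower: Ly6d (817 and 695), Pacsin1 (109 and 79.1) and Spib (977 and 847). Siglech (291 and 244), Ccr9 and Cox6a2 did not pass it. The sums of the 9 markers, 11353 and 11047, are mostly Tcf4, at 8064 and 8111, the 1 marker with a higher mean. The 6 B cell markers all had lower means, with sums of 8088 and 7305, and none was called, though 4 passed the unadjusted threshold. All 6 red cell markers found had higher means, and 1 passed that threshold. Means were higher in 3 and lower in 5 T cell markers, and higher in 7 and lower in 2 alveolar macrophage markers. Natural killer cell and patrolling monocyte markers were each higher in 3 and lower in 4. No marker of these lists was called. At the unadjusted threshold 8.47% of all tested clusters passed. Of the 95 markers found for all cell types, 0 were listed at 0 in either genotype.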

How the data were processed

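Lungs of 3 wild type and 3 lincRNA-Cox2 knockout mice were sequenced as 50-base paired-end reads, per the labels' protocols. Per the submitters' processing notes, the authors used mm10, STAR 2.5.1b, Bowtie2, DESeq2, bedtools and SAMtools, in roles those notes leave unsaid. How reads were assigned to clusters, and whether by strand, is not given in the sources used here. The authors deposited 1 table of gene clusters with the mean normalized count (a signal value) over all libraries and per genotype. It also gives, per the file headers, the authors' shrunken log2 fold change with its standard error, a Wald score, and p-values before and after adjustment. Adjusted p-values were given for 16902 of 20494 clusters, the lowest at a mean of 12.8. The authors' DESeq2 Wald test, as deposited, served as the test of each gene, and no count model was fitted here.

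The 46 genes and all lists were chosen with earlier results of these data known. A symbol with several clusters was read from the one with the highest mean. Every member may be named; fuller statistics were given for called members, those with an unadjusted p under 0.05, the 5 highest per kilobase, the 3 highest and 3 lowest ratios at a mean of at least 50, and Gm4951, F830016B08Rik and Iigp1. Log2 ratios were taken from group means with no pseudocount. Of the pathway and marker genes listed, 15 symbols were not matched, and a gene of the pathway lists is not reported here.

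Reads per library were derived from the printed means. Size factors were bounded by linear programming (scipy 1.17.1), and a mean was used only where 1 set of 3 whole read numbers matched it within rounding. Up to a mean of 45, 5050 of 5050 wild type and 5017 of 5019 knockout clusters gave 1 set. Tested on simulated wild type means of 4823 clusters, the derivation returned the true reads for 4813 (99.8%), a wrong set for 0 and several sets for 10. For 500 simulated means above 50 and up to 200, printed with 6 decimals as for Gm4951, it returned the true reads for 469 (93.8%), a wrong set for 0 and several sets for 31. Lengths and 50-base words shared between transcripts came from GENCODE M21. For the 38 promoter windows of 33 members, the first 40 bases after the start lay in a GENCODE transcript in 25. Python 3.11.15, numpy 2.4.6, pandas 2.3.3 and matplotlib 3.10.9 were used.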

Additional observations from a re-analysis of the deposited data

How the results depend on the processing

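No paired analysis was possible because the sample titles share no replicate numbers across genotypes and the table holds group means. The count of called members was 3 at an adjusted p under 0.1 and with Benjamini-Hochberg adjustment over every cluster with a p-value, 2 at a mean of at least 50, where F830016B08Rik was left out, and 1 at an adjusted p under 0.01, namely Gm4951. The wider pathway count rose from 0 to 1 (Tor3a) at an adjusted p under 0.1. The median log2 ratio of the members ranged from -0.03 to -0.01 over 6 alternatives, 1 of them, the median without Gm4951 and F830016B08Rik (-0.02), chosen after seeing the data. Dividing group means by their sums shifted log2 ratios by 0.0109 and left 21 members higher, with Irf1 and Herc6 turning sign. Of 48 values of 12 named members under planned settings, 7 moved by more than the spread set for them, all of these under shrinkage. That spread was the standard error of the shrunken fold change, or, for Gm4951 and F830016B08Rik, the wider SD of their log2 library values. With a pseudocount of 10 their log2 ratios were 1.43 and 1.66. No called member turned sign. With 1 library left out, the Gm4951 log2 ratio ranged from 1.20 to 1.95 and that of F830016B08Rik from 2.17 to 3.17. The ISRE core share was 60.6% with a core 1 base shorter, 42.4% with a core 1 base longer (a C added) and 39.4% within 150 bases before the start. Not run were a count test on derived reads, calls with a replicate left out, and another scaling for the overlap of libraries, as the table gives no reads for most genes. Depth limits F830016B08Rik most, with 18 wild type and 121 knockout reads in all.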
